A study of Mus musculus with 6 samples.

Results

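A set of 10 genes of NAD metabolism were followed here in muscle stem cells: the mono-ADP-ribosyltransferase genes Art1, Art3, Art4 and Art5, and the NAD salvage genes Nampt, Naprt, Nmnat1, Nmnat3, Nmrk1 and Nmrk2. They were chosen by name, with earlier results of these data known. Each was measured by 1 probe set that the platform annotation gives to a single gene. All 10 of the 10 genes thus entered the comparison among 19938 genes in all. Expression was measured on 6 Affymetrix whole-transcript mouse arrays, 3 from freshly sorted satellite cells (fresh) and 3 from satellite cells after 5 days in culture (cultured). All cells came from resting hind-limb, abdominal and triceps muscles of C57BL/6J mice aged 2 months and were sorted for beta-1 integrin and CXCR4 and against Ter119, Sca1, CD11b, CD31 and CD45. Culture was on collagen type 1 and laminin in F10 medium that held 20% donor horse serum and received bFGF (5 ng/ml) every day. No genotype other than the strain and no treatment other than culture is named. Of 3 mice named by the labels none is linked to a given array, so the p-values rest on a spread between arrays that can be technical in part.

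NAD is a carrier of electrons in metabolism and is also consumed by enzymes that split it. Cells rebuild it from nicotinamide through Nampt, from nicotinic acid through Naprt and from nicotinamide riboside through the Nmrk kinases, and the Nmnat enzymes then complete the dinucleotide. Mono-ADP-ribosyltransferases of the Art family use NAD outside the cell or at its surface to attach a single ADP-ribose to proteins, and in skeletal muscle Art1 is known for modifying integrin alpha7, the laminin receptor subunit.

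None of the 10 genes passed the test of cultured against fresh cells, limma with Benjamini-Hochberg adjustment over all 19938 genes at an adjusted p of 0.05. Over all genes 4.32% passed, 671 genes or 3.37% lower and 190 genes or 0.953% higher in the cultured cells, and after a further quantile normalization 925 were lower and 586 higher. Among the genes whose mean over the 6 arrays lay within the range of the 10 genes, 2.19 to 4.32 on the log2 scale, 1.93% passed. At an unadjusted p of 0.05, 2 of the 10 passed, Naprt and Nmnat1, against 17.6% of all genes. This pair did not hold across settings. None of the 10 passed that level with the replicate number as a block, without fresh replicate 1 or without cultured replicate 3. The filter on background left 5 of the 10, with Naprt but without Nmnat1, and none of the 5 passed that level. Of all 10, only Art3 passed it after quantile normalization or cyclic loess, and 4 did with array weights. The fresh and cultured arrays did not overlap for 1 of the 10, Nmnat1, against 23.2% of all genes. The log2 fold changes of the 10 genes ran from -0.44 for Art3 to 0.42 for Naprt, 7 of them above 0. Their median was 0.13 against 0.04 over all genes, of which 11284 of 19938 lay above 0. Among the genes within the range of means of the 10 genes, 8321 of 13559 lay above 0, with a median of 0.07.

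Most of the 10 probe sets gave values near the background of the arrays. The background of an array was set, over 1194 genes of olfactory and vomeronasal receptors, at their 95th percentile, which lay between 3.17 and 3.40 on the 6 arrays. Nmnat3 was above it on all 6 arrays, Naprt on 5, Art1, Art5 and Nampt on 4 each, Art4 on 2 and Nmnat1 on 1. Art3, Nmrk1 and Nmrk2 were below it on every array. Of all genes, 38.3% were above background on all 6 arrays. Among the genes within the range of means of the 10 genes, 26.1% were. RMA, the method named by the submitters, compresses differences near background, so that fold changes of such probe sets can understate a change of the transcript. For a gene below background, a low value does not show that the transcript was absent.

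**Figure D1:**
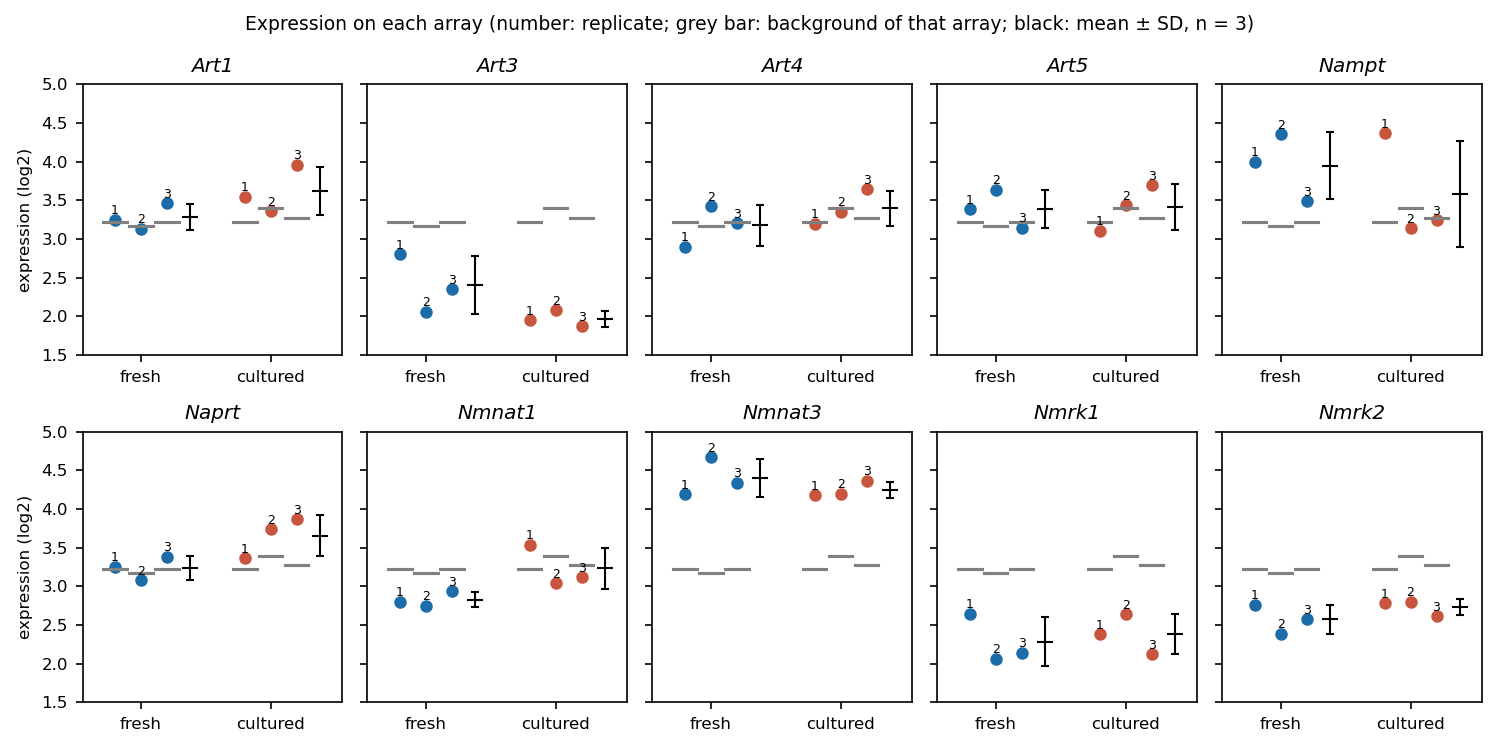
Expression (log2, vertical axis) of each of the 10 genes on the 3 fresh and 3 cultured arrays, 1 point per array numbered by replicate, with the background of that array as a grey bar and the mean ± SD of each group (n = 3) in black. Only Nmnat3 lies above background on all 6 arrays, Nampt has the widest spread within groups, and the groups fail to overlap only for Nmnat1.

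Art1, a surface enzyme that transfers ADP-ribose to arginine and is typical of striated muscle, was at 3.25, 3.14 and 3.46 on fresh replicates 1, 2 and 3 and at 3.55, 3.36 and 3.96 on cultured replicates 1, 2 and 3. Cultured replicate 3 was the highest, and the groups overlapped because cultured replicate 2 lay below fresh replicate 3. The log2 fold change was 0.34 ± 0.19 (SE), with a 95% interval of -0.09 to 0.78 and an adjusted p of 0.406 in limma. That interval reaches from a ratio of 0.937 to one of 1.71, and a log2 change of 0.85 would have been needed to pass at this standard error. The differentiating-muscle marker list, 15 genes such as Myog and Actc1, also had its highest array median on cultured replicate 3, at 6.46 against 5.09 and 4.73 on cultured replicates 1 and 2 and 4.03 to 4.21 on the fresh arrays. Its part in the value of Art1 was not tested. Without cultured replicate 3 the log2 fold change of Art1 was 0.17.

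Art1 and Art5 are neighbours on chromosome 7, on opposite strands, with no other annotated gene starting between them. Art5, known as a secreted member of the family, was at 3.39, 3.64 and 3.15 on fresh replicates 1 to 3 and at 3.11, 3.44 and 3.70 on cultured replicates 1 to 3. The groups covered nearly the same range, and the lowest and the highest value were both on cultured arrays. Its log2 fold change was 0.02 ± 0.20, with an interval of -0.44 to 0.49 and an adjusted p of 0.967. The sign of this value changed with the scaling, to -0.05 after cyclic loess.

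Art3 and Art4 belong to the family by sequence, and no arginine-specific transferase activity is established for either. Art3 was at 2.80, 2.06 and 2.35 on fresh replicates 1 to 3 and at 1.95, 2.08 and 1.87 on cultured replicates 1 to 3, all below background. Fresh replicate 1 stood above the other 5 arrays, and fresh replicate 2 lay within the cultured values. The log2 fold change of -0.44 ± 0.20, with an interval of -0.90 to 0.03 and an adjusted p of 0.314, was the lowest of the 10. Without fresh replicate 1 it was -0.24. Art4, which in humans carries the Dombrock blood group antigens, was at 2.90, 3.43 and 3.20 in fresh and at 3.20, 3.35 and 3.64 in cultured cells. The groups overlapped, with the lowest value on fresh replicate 1 and the highest on cultured replicate 3. Its log2 fold change was 0.22 ± 0.19, with an interval of -0.21 to 0.65 and an adjusted p of 0.611. Leaving out fresh replicate 1 gave 0.08, cultured replicate 3 gave 0.10 and fresh replicate 2 gave 0.35.

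Nampt, the rate-limiting enzyme of salvage from nicotinamide, varied more within groups than between them. It was at 4.00, 4.36 and 3.49 on fresh replicates 1, 2 and 3 and at 4.37, 3.14 and 3.25 on cultured replicates 1, 2 and 3. All 3 fresh arrays were above background, whereas of the cultured arrays only replicate 1 was, and that array held the highest value of all 6. The means were 3.95 ± 0.43 (SD, n = 3) in fresh and 3.59 ± 0.68 in cultured cells. The log2 fold change was -0.37 ± 0.36 (SE), with an interval of -1.19 to 0.46 and an adjusted p of 0.664. A log2 change of 1.60 would have been needed to pass, the largest such value among the 10 genes. Without cultured replicate 1 the value was -0.76 at an adjusted p of 0.125, and without either of the other cultured arrays it lay closer to 0, so that the estimate depends on single arrays.

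The upstream sequences of Nampt and Art1 are shown because these are the salvage gene of widest spread and the transferase most tied to muscle. They were read from RefSeq on build GRCm38.p6 and cover 200 bases, from base 250 to base 51 before the annotated start of transcription, 5′ to 3′ on the strand of the gene. Capitals mark the motif CANNTG, the E-box that is bound by basic helix-loop-helix factors such as Myod1 and Myog. The motif reads the same on both strands.
Art1 (chr7:102101493-102101692, plus strand): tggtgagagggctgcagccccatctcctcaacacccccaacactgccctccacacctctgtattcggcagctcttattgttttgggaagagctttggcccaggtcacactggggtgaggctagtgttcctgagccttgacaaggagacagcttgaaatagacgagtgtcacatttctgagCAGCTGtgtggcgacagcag
Nampt (chr12:32820085-32820284, plus strand): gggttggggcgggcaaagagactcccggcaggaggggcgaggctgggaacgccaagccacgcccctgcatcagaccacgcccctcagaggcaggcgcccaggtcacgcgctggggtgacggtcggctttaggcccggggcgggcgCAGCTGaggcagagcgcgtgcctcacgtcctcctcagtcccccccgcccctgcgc
Each window held 1 match, CAGCTG in both. Of the 10 genes, 9 had 12 windows in the RefSeq table, and 10 of these windows, of 8 genes, held the motif, against 59% of 32851 windows of the same length over all genes. The windows are not independent, since those of Nmnat1 overlapped and may hold the same site. The narrower motif CACGTG, a form of the E-box that clock and Myc factors bind and that also matches CANNTG, was found in 1 of the 12, that of Art5, against 4.34% of all windows. These matches describe letters and say nothing of binding in these cells.

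Naprt opens the route from nicotinic acid. It was at 3.25, 3.08 and 3.39 in fresh and at 3.36, 3.74 and 3.87 in cultured cells. The cultured values were the higher ones except for cultured replicate 1, which lay just under fresh replicate 3. Its log2 fold change of 0.42 ± 0.17, a 1.34-fold difference, had an interval of 0.02 to 0.82, an unadjusted p of 0.0438 in limma and an adjusted p of 0.266. Over the other settings the adjusted p of Naprt ran from 0.0889 to 0.571, the latter without cultured replicate 3.

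The riboside kinases Nmrk1 and Nmrk2 both lay below background on all arrays. Nmrk1, the widely expressed kinase, was at 2.65, 2.07 and 2.14 in fresh and at 2.38, 2.64 and 2.12 in cultured cells. Its groups overlapped over nearly their whole range, with a log2 fold change of 0.10 ± 0.21, an interval of -0.39 to 0.58 and an adjusted p of 0.863. Nmrk2, a kinase of striated muscle that was also described as a muscle integrin-binding protein, was at 2.76, 2.39 and 2.58 in fresh and at 2.78, 2.80 and 2.62 in cultured cells. The groups overlapped, since fresh replicate 1 lay above cultured replicate 3. Its log2 fold change was 0.16 ± 0.15, with an interval of -0.19 to 0.50 and an adjusted p of 0.654. It was 0.06 without fresh replicate 2 and 0.25 without fresh replicate 1. Of the differentiating-muscle markers, 7 of 15 passed the test upward and 1 downward, against 0.953% and 3.37% of all genes. The Nmrk2 signal stayed below background on the cultured arrays, and its relation to these markers was not tested.

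Nmnat1, the adenylyltransferase of the nucleus, was at 2.80, 2.75 and 2.94 in fresh and at 3.54, 3.04 and 3.12 in cultured cells. Every cultured value lay above every fresh value, but only cultured replicate 1 was above background. The log2 fold change was 0.41 ± 0.17, a 1.32-fold difference, with an interval of 0.02 to 0.79, an unadjusted p of 0.0430 in limma and an adjusted p of 0.264. Without cultured replicate 1 the log2 fold change was 0.25. Nmnat3, assigned to mitochondria, was the gene above background on all arrays, at 4.19, 4.67 and 4.34 in fresh and at 4.18, 4.20 and 4.36 in cultured cells. Fresh replicate 2 was the highest array, and the rest lay close together. Its log2 fold change was -0.16 ± 0.16, with an interval of -0.53 to 0.22 and an adjusted p of 0.685, so that for this probe set a fold below 0.690 or above 1.17 lay outside the interval. The log2 value was -0.022 without fresh replicate 2 and -0.26 without fresh replicate 1.

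**Figure D2:**
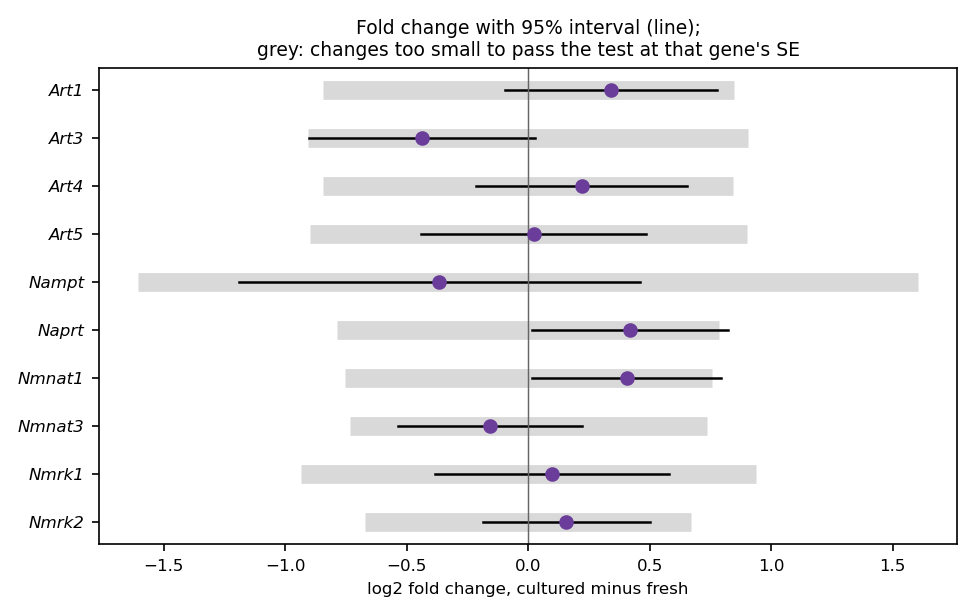
Log2 fold change (cultured minus fresh, horizontal axis) of the 10 genes as points with their 95% intervals from limma as lines. Grey bars span the changes too small to pass the test at the standard error of that gene, from 0.67 for Nmrk2 to 1.60 for Nampt in either direction, and every point lies within its bar.

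By array, 4 of the 10 genes had their highest value on cultured replicate 3, namely Art1, Art4, Art5 and Naprt, and 5 had their lowest value on fresh replicate 2. The number of genes above background ran from 3 on cultured replicate 2 to 5 on fresh replicate 1, cultured replicate 1 and cultured replicate 3. Of the 10 genes, Nampt and Art3 had the largest SD over the 6 arrays, at 0.55 and 0.34. The genes whose pattern over the 6 arrays was most like that of Nampt were Gabra6, Rxfp3 and Cenpq, with Pearson's r of 0.989, 0.988 and 0.988, as a description with no test. Gabra6 and Rxfp3 were below background on all arrays. Cenpq, a kinetochore gene, was at 4.12, 4.43 and 3.16 in fresh and at 4.72, 2.87 and 3.04 in cultured cells, so that the arrays of each group stood in the same order as for Nampt, with cultured replicate 1 far above the other 2 cultured arrays. For Art3 the nearest were Zyg11a, Olfr802 and Ermn, with r of 0.999, 0.991 and 0.990, all below background on every array, as Art3 was. Over these 6 arrays 183 genes exceeded an r of 0.9 for Nampt and 205 for Art3.

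Related genes were taken from lists of the same pathways. Of the listed genes 81 were measured, and 4 fell and 3 rose, with a median log2 fold change of 0.11. Over all genes 3.37% fell and 0.953% rose, with a median of 0.04. Every list count below is to be read beside these shares. Lists are described by counts, with no test of the list. The other mouse family members Art2a and Art2b, the NAD glycohydrolase gene Cd38, the arginine-specific ADP-ribose hydrolase gene Adprh and G6pdx had no single-gene probe set here and were not analysed.

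Among genes of other NAD synthesis steps, 1 of 15 measured genes fell and none rose, with a median of 0.20. The gene that fell was Pnp, the purine nucleoside phosphorylase that can release nicotinamide from its riboside. Pnp was at 7.97, 7.61 and 8.27 in fresh and at 6.14, 4.50 and 4.97 in cultured cells. The groups stood well apart, with a log2 fold change of -2.75 ± 0.40, a 6.72-fold difference, and an adjusted p of 0.00768. Pnp has a near-identical neighbour, Pnp2, which had no probe set of its own here, so the signal may include both. Kyat1, a kynurenine aminotransferase gene, was next at 0.50 with an adjusted p of 0.0741. The nicotinic acid pathway enzyme Nadsyn1 and the neuronal Nmnat2 were at 0.40 and 0.45, with adjusted p of 0.193 and 0.189.

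For removal of ADP-ribose, 1 of 9 measured genes rose and none fell, with a median of 0.11. Macrod2, a macrodomain hydrolase of mono-ADP-ribose, was at 4.55, 4.99 and 5.05 in fresh and at 5.74, 7.25 and 6.39 in cultured cells. The groups did not overlap, and the log2 fold change was 1.60 ± 0.35 with an adjusted p of 0.0492. The other 5 probe sets of Macrod2 gave -0.25 to 0.21, and the call was lost when all were averaged, so the rise belongs to 1 probe set and is uncertain for the gene. Oard1, which removes ADP-ribose from glutamate, was at 0.58 with an adjusted p of 0.280.

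In NADP supply, 2 of 10 measured genes rose and none fell, with a median of 0.33. Me1, the cytosolic malic enzyme, was at 2.81, 3.47 and 2.99 in fresh and at 5.44, 4.35 and 4.58 in cultured cells. Its fresh values lay near background and its cultured values above it, with a log2 fold change of 1.70 ± 0.30 and an adjusted p of 0.0196, and a further probe set gave 1.90. Pgd of the pentose phosphate pathway was at 4.65, 5.00 and 4.68 in fresh and at 6.43, 5.91 and 5.56 in cultured cells, with groups that did not overlap, a log2 fold change of 1.19 ± 0.23 and an adjusted p of 0.0292. Leaving out fresh replicate 1 or 3 or cultured replicate 3 ended the call of Me1, with a highest adjusted p of 0.0948. Leaving out any fresh array or cultured replicate 2 ended that of Pgd, with a highest adjusted p of 0.123. Both calls also ended with the replicate number as a block, at adjusted p of 0.0591 for Me1 and 0.0559 for Pgd.

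None of 11 measured genes of NAD and precursor transport and none of 13 of NAD and precursor breakdown passed in limma. At an unadjusted p under 0.05 there were 2 and 1 of them, against 17.6% of all genes. The gap junction gene Gja1 had 1.04 (adjusted p = 0.246) and the nucleoside transporter Slc29a1 had 0.52 (adjusted p = 0.324). The nucleotidases Nt5c and Nt5c2 had values of 0.66 and -0.24, at adjusted p of 0.251 and 0.595. The binding partners of Art1 and Nmrk2 at the surface did not pass either: Itga7 had 0.22 (adjusted p = 0.763) and Itgb1, which the sort selected for, had -0.55 (adjusted p = 0.602).

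Of the enzymes that consume NAD inside the cell, 3 of 21 measured sirtuin and PARP genes fell and none rose, with a median of 0.03. Sirt2, a mostly cytosolic deacetylase, was at 5.35, 5.55 and 5.55 in fresh and at 4.26, 4.18 and 3.94 in cultured cells, with a log2 fold change of -1.35 ± 0.15 and an adjusted p of 0.00207. Tiparp, a mono-ADP-ribosyltransferase of the PARP family that acts inside the cell, was at 5.86, 6.53 and 4.93 in fresh and at 3.67, 3.67 and 3.60 in cultured cells, with -2.13 ± 0.36 and an adjusted p of 0.0148. Parp3, a DNA repair enzyme, had -0.90 ± 0.18 and an adjusted p of 0.0311. Sirt2 and Pnp kept their calls in all 14 other settings, with a highest adjusted p of 0.0181 for Sirt2 and 0.0496 for Pnp. The call of Pnp was thus close to the threshold without cultured replicate 3. The call of Tiparp ended when fresh replicate 1 or cultured replicate 3 was left out, with a highest adjusted p of 0.0781. That of Parp3 ended without replicate 2 or 3 of either group, with a trended and robust prior and with the replicate number as a block, with a highest adjusted p of 0.125.

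**Figure D3:**
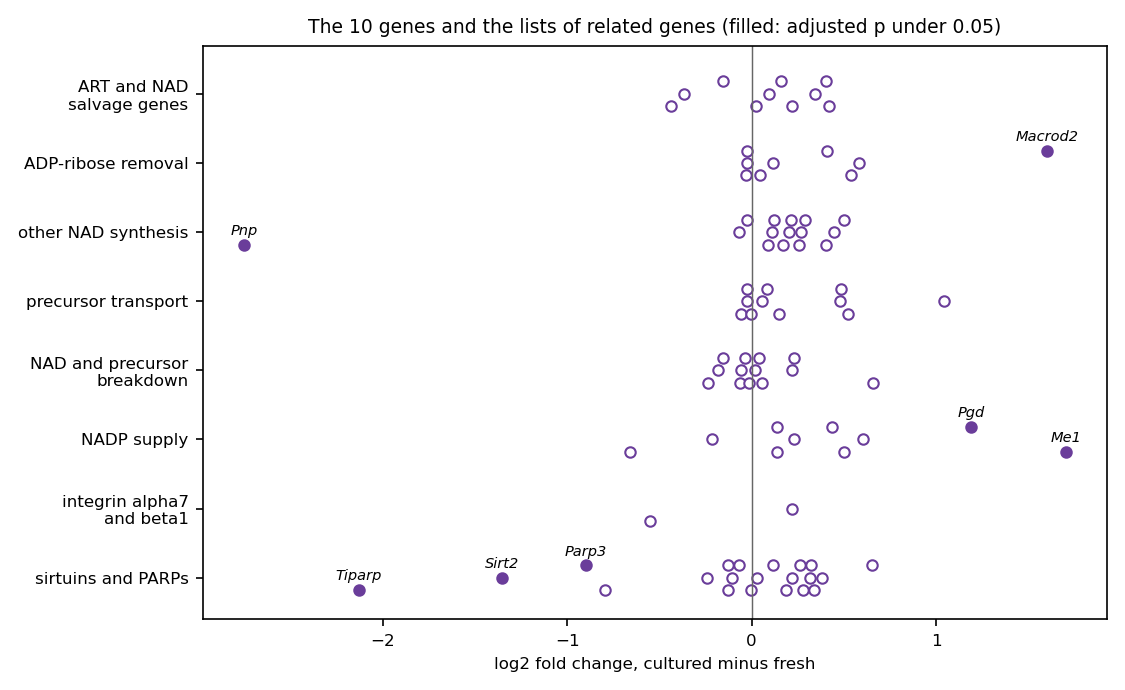
Log2 fold change (cultured minus fresh, horizontal axis) of each measured gene, 1 point per gene, for the 10 genes and for each list of related genes, filled where the adjusted p was under 0.05. The 10 genes lie between -0.44 and 0.42 with no filled point, and the filled points are Pnp, Tiparp, Sirt2 and Parp3 on the left and Macrod2, Pgd and Me1 on the right.

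The sorted identity was checked with marker lists. For comparison, 3.37% of all genes fell and 0.953% rose in limma, and 17.6% had an unadjusted p under 0.05. Above background were 12617 of 19938 genes on at least 1 array and 38.3% on all. Of 11 satellite cell markers, 11 were above background on at least 1 array and 9 on all, and 7 fell, Pax7 among them. This list includes Itgb1 and Cxcr4, which the sort selected for. Of 10 markers of monocytes, macrophages and neutrophils, a class rich in Nampt, 3 were above background on at least 1 array and none on all. Cd68 and S100a9 were each above it on 3 fresh arrays and 1 cultured array, and Cd14 on 2 fresh arrays. None of these markers passed in limma, with 1, Cd68, at an unadjusted p under 0.05. The log2 of their summed level was 6.01 to 6.33 in fresh and 5.96 to 6.03 in cultured cells. Of 5 erythroid markers measured, the class known for ART4 in humans, none passed in limma, with none at an unadjusted p under 0.05, and their summed level was 5.72 to 5.86 and 5.84 to 5.98. Of 15 mature myofibre markers 1 fell and 1 rose. Their summed level was 9.18 to 9.67 in fresh and 9.21 to 10.22 in cultured cells. Of 9 measured fibro-adipogenic markers 4 fell and none rose. Their summed level was 8.98 to 9.63 in fresh and 7.09 to 7.18 in cultured cells. Dpt was at 7.39, 7.24 and 7.68 and Dcn at 8.53, 7.78 and 5.86 on the fresh arrays. Both were below background on every cultured array, whereas Lum and Pi16 were below it on every array. Of 8 endothelial markers 1 fell, and of 4 Schwann cell markers 1 fell. Of 8 mast cell and basophil markers 2 rose, namely Mcpt8 and Milr1, with Cpa3 and Ms4a2 below background. None of 6 lymphocyte markers and none of 7 mural markers passed in limma, with 0 and 2 at an unadjusted p under 0.05. The part of these lists in the values of the 10 genes was not tested. In such bulk samples, fewer cells of a type and less RNA per cell cannot be told apart.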

How the data were processed

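Per the submitters' processing notes, the authors made the deposited log2 values with RMA and the package oligo, whose versions are not stated. RMA corrects the background, equalises quantiles between arrays and fits a median polish over probes. No source used here names the genome build, so no gene coordinates are given beyond the upstream windows of GRCm38.p6. Only the chromosome and the order of gene starts around Art1 and Art5 were read from the gene annotation. The annotation gives 1 gene to 21789 of 35556 probe sets, several to 1621, which stayed unnamed, and lists no gene for 12146. Symbols were updated by gene identifier, and the probe set of highest mean over the 6 arrays was kept per gene. Each of the 10 genes had 1.

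Groups were compared with lmFit and eBayes of limma 3.58.1 (R 4.3.3), without covariates or a filter, and with Benjamini-Hochberg adjustment over 19938 genes. The change needed to pass is the standard error times the t value at the largest unadjusted p called, 0.00215. The code was tested on simulated data. The genes and lists were chosen with earlier results of these data known. Named genes are the 10, list members past the test, and the 2 of largest absolute fold change per list. Adprh, Art2a, Art2b, Cd38, G6pdx, Pnp2, Nadsyn1, Nmnat2 and the named markers were added after values were seen. Leading marker genes were not ranked, since levels of different probe sets have no order. Alternatives were the replicate number as a block, further normalizations, another prior, array weights, a background filter, other probe set rules and leaving out each array. The number of arrays limits the precision.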

Additional observations from a re-analysis of the deposited data

How the results depend on the processing

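None of the 10 genes passed the adjusted p of 0.05 in any of the 14 other settings, though only 5 of them were left by the filter on background. Fold changes kept their sign in all settings run for 8 of the 10, with Art5 and Nmrk1 as exceptions. The replicate block, the other prior, the background filter and the other probe set rules could not change the fold changes of these genes. Only the further normalizations, array weights and leaving out single arrays could change a sign. Art5 was at -0.051 after cyclic loess and at -0.12 to 0.18 when single arrays were left out, and Nmrk1 was at -0.0087 with array weights and at -0.033 to 0.28 when single arrays were left out. Over all genes 1511 passed after quantile normalization, 1492 after cyclic loess and 1742 with array weights, against 861, and 448 (without cultured replicate 3) to 1517 (without cultured replicate 1) when single arrays were left out. The 7 related genes past the test became 3 to 8 when single arrays were left out. The labels tie no replicate number to a mouse, and the deviations of same-numbered arrays correlated at -0.09, -0.14 and 0.03. With so few arrays per group, these correlations cannot decide whether same-numbered arrays shared a mouse or a preparation. With the replicate number as a block, 662 genes passed over all, none of the 10 did, and 4 related genes did, with Pgd, Me1 and Parp3 losing their calls. Macrod2 lost its call after quantile normalization, with averaged probe sets, and when any fresh array or cultured replicate 3 was left out. Low signal over background limits what can be said of Art3, Nmrk1 and Nmrk2 in particular.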
